A study of Mus musculus with 4 samples.

Results

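The genes described here encode the proteasome and its activators. Members were all non-control probes whose gene name in the scanner files starts with Psma, Psmb, Psmc, Psmd or Psme followed by a digit, without Psmb8 and Psmb9. This rule found 66 probes for 42 gene names, out of 41174 probes and 28631 names on the array. The names comprise 17 core particle genes, 20 regulatory particle genes, 4 activator genes and Psmc3ip, which carries a similar name but encodes a protein of meiotic recombination and was counted in no group of subunits. RefSeq assigned the same symbol to the accession of 56 probes, and the accessions of the other 10, mostly cDNA clones, had no entry, so their names are those of the array.

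Liver RNA came from 4 female mice of strain BALBc, each on 1 array labelled with Cy3, 20 days after inoculation. Of these mice, 2 belong to the group called control and 2 to the group called LB1, with replicate numbers 1 and 2 in each. The series concerns a Lactobacillus isolate from ostrich and its effects on metabolism in mice. The labels give neither the ages of the animals, nor the meaning of LB1, nor what control mice received. In whole liver, a smaller number of cells of a type and less RNA per cell cannot be told apart.

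The proteasome is the large protease that degrades proteins tagged with ubiquitin. Its core particle is a barrel of outer rings of alpha subunits (Psma), which gate the entrance, and inner rings of beta subunits (Psmb), of which Psmb5, Psmb6 and Psmb7 carry the active sites. The regulatory particle caps the barrel: its ATPases (Psmc) unfold the substrate, and its non-ATPase subunits (Psmd) bind the ubiquitin chain and cut it off. The subunits are present in fixed ratio in the finished complex, and in mammalian cells their genes are jointly induced by the transcription factor Nfe2l1 when proteasome activity is short.

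Control and LB1 arrays were not equally bright and not equal in cell markers. Processed signals had a 75th percentile of 410.9 and 414.7 in control and of 146.9 and 80.8 in LB1 livers, and every value below is the log2 of the signal relative to that percentile of its own array. Both Psmb11 probes, not well above background on any array, still read higher in LB1 livers on this scale, by 1.89 and 1.87. Differences are LB1 minus control on this scale, tested with limma over 22957 probes with Benjamini-Hochberg adjustment, and a call is an adjusted p under 0.05, which 32.4% of these probes reached. Of 10 hepatocyte markers tested, 4 were called higher and 1 lower, and all 10 on the array were above background. Only 1 of the 4 higher markers was unsaturated on all arrays. Saturated spots numbered 266 and 297 on control and 104 and 64 on LB1 arrays. The summed signal of the 10 markers, in multiples of the 75th percentile, was 1261 and 1290 in control and 2449 and 3166 in LB1 livers. Of the 10, 6 were saturated on at least 1 array, so this sum does not measure the size of a rise. Of 13 tested mesothelial markers, 10 were called higher and none lower, with summed signals of 169 and 199 in control and 352 and 472 in LB1 livers. Bnc1 was not above background on any array. The striated muscle list (4 of 6 higher, none lower) summed to 1.01 and 0.625 in control and 7.45 and 19.9 in LB1 livers, with Ckm, Mb, Myh6 and Tnnt2 not above background on any array. Lymphocyte markers (5 of 12 higher, none lower) summed to 3.09 and 3.61 against 4.79 and 5.16. Macrophage markers (1 of 13 higher, 2 lower) summed to 120 and 127 against 124 and 132, and sinusoidal endothelial markers (2 of 10 higher, 2 lower) to 56.7 and 63.9 against 58.3 and 49.3. Pancreas markers (1 of 4 higher, 1 lower) summed to 7.04 and 5.98 against 2.75 and 1.73, with Cela2a, Cpa1, Cpb1 and Pnlip not above background. The part of array brightness and of these markers in the proteasome results was not tested.

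Proteasome genes changed in both directions in LB1 livers, and subunits of the same ring differed. Each gene is represented by the probe that was brightest over the 4 arrays. Of the 17 core particle genes 16 passed the filter for signal above background, and 3 of these were higher (Psmb3, Psmb5 and Psmb6) and 4 lower (Psma3, Psma4, Psma6 and Psmb1). All 20 regulatory particle genes passed the filter, and 2 were higher (Psmc5 and Psmd3) and 6 lower (Psmc3, Psmc6, Psmd5, Psmd8, Psmd13 and Psmd14). None of the 4 activator genes was called by limma, and 2 of them, Psme1 and Psme2, had an unadjusted p under 0.05. Over all 16040 genes tested the same way, 31.5% were called, 21.7% higher and 9.84% lower. The 40 subunit and activator genes tested had 37.5% called, 12.5% higher and 25% lower. So the share called lay near that of all genes, while the share called lower was above it and the share called higher below it.

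The core particle and the regulatory particle were compared by their medians. The median difference was 0.064 over the core particle genes, -0.29 over the regulatory particle genes and 0.29 over all genes tested. Against all genes, the core particle therefore lay 0.23 lower (-0.23) and the regulatory particle 0.58 lower (-0.58), and the core median exceeded the regulatory median by 0.36. Within slide 1, which held both arrays of replicate 1, this gap was 0.19, and within slide 2 it was 0.90. The core median against all genes was -0.16 on slide 1 and 0.078 on slide 2, so its sign was not the same on both slides. The regulatory median against all genes was -0.35 and -0.83. Differences spread widely inside both particles, from -1.71 to 1.87 in the core and from -2.05 to 1.25 in the regulatory particle. The gap between the particle medians was smaller than the standard deviation among the genes of either (1.06 and 0.85). In the core particle both LB1 arrays lay above both control arrays for 8 genes and below them for 7. In the regulatory particle they lay above for 6 and below for 10. Over all genes these shares were 49.1% above and 27.6% below.

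**Figure D1:**
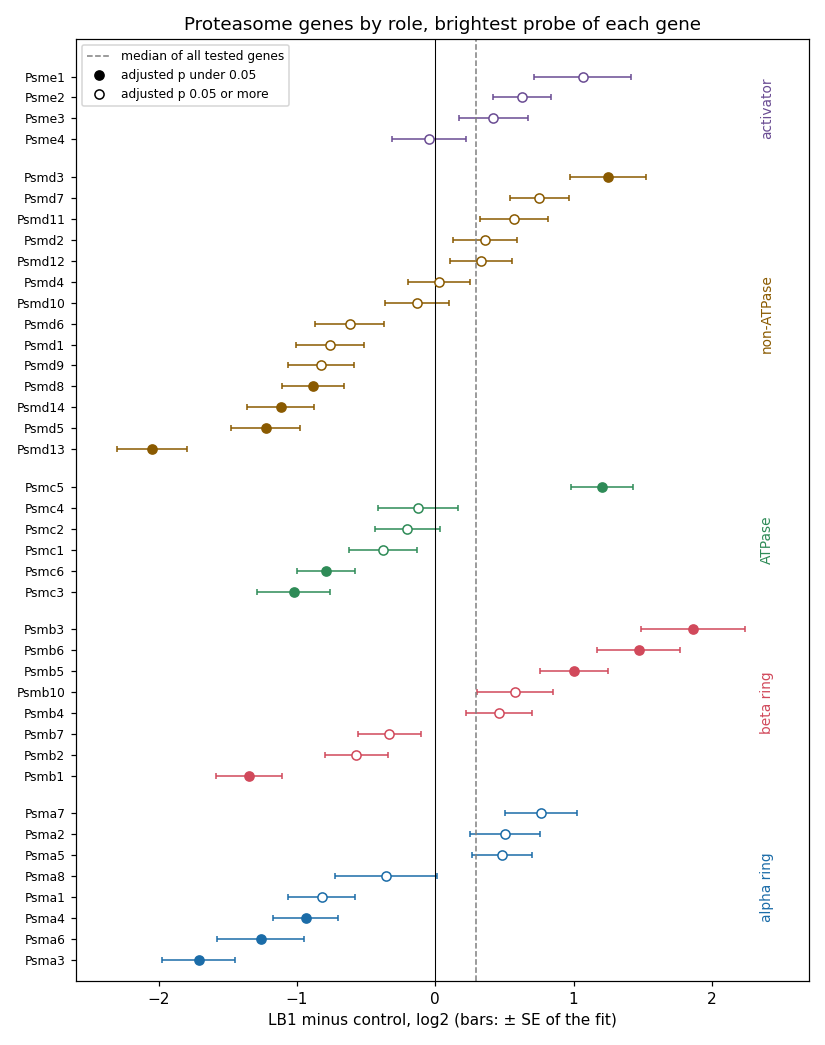
LB1 minus control difference on the log2 scale (horizontal axis) for the brightest probe of each of 40 proteasome genes, grouped by role on the vertical axis, with bars of ± SE of the limma fit and filled points for adjusted p under 0.05. Beta ring genes extend from -1.35 to 1.87, alpha ring genes from -1.71 to 0.76, and the dashed line is the median of all tested genes at 0.29.

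Limits of these counts come from the small design and the scaling. With slide as a block the regulatory particle had 3 genes lower instead of 6 and the core particle 3 instead of 4, while the higher genes numbered 2 and 3 as before. Without either control array no gene of either particle was called, and without LB1 replicate 2, the dimmest array, 2 core and 2 regulatory particle genes were lower and 2 and 1 higher. With quantile normalization, which moved the median of all genes from 0.29 to 0.05, the counts were 2 higher and 5 lower in the core and 1 higher and 7 lower in the regulatory particle, against 12.1% higher and 13.2% lower over all genes. With the array median as reference, which moved the median of all genes to -0.34, 1 core gene was higher and 6 lower, and 0 regulatory particle genes were higher and 10 lower, against 7.92% higher and 25.7% lower over all genes. With normexp background correction 2 core genes were higher and 7 lower and 1 regulatory particle gene was higher and 13 lower, against 46.5% higher and 20.5% lower over all genes. Shares over all genes were not taken for the slide block or for the fits without an array. The exact permutation test of any single gene, 2-sided, cannot go below p = 0.333 with 2 arrays against 2.

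In the alpha ring, 3 of 8 genes fell, none rose and 5 did not pass, against 9.84% lower and 21.7% higher over all genes. Psma3, an alpha subunit of the gated entrance, was at 3.76 and 3.63 on the control arrays and at 2.24 and 1.73 on the LB1 arrays. Its difference was -1.71 (SE 0.26, adjusted p = 0.0219), which is a 3.27-fold fall. Psma6 was at 4.54 and 4.74 in control and at 3.74 and 3.01 in LB1 livers, a difference of -1.26 (SE 0.32, adjusted p = 0.039). Psma4 was at 3.04 and 3.18 against 2.33 and 2.02, a difference of -0.94 (SE 0.23, adjusted p = 0.0386). All LB1 values of these 3 genes lay below all control values, and LB1 replicate 2 was lower than replicate 1 each time. Psma4 missed the threshold with the slide block (adjusted p = 0.0557). The values of Psma2, Psma5 and Psma7, at 0.50, 0.48 and 0.76, and of Psma1, at -0.82, did not pass the test. Psma1 was called lower with normexp (-1.37, adjusted p = 0.00202), quantile normalization (-1.09, adjusted p = 0.0386), the array median as reference (-1.46, adjusted p = 0.0037) and the deposited series values (-1.14, adjusted p = 0.00205). Psma2 and Psma5 turned to -0.13 and -0.15 with the array median as reference. Psma8, the alpha subunit of the testis proteasome, was at -0.36 with LB1 and control values that overlapped.

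In the beta ring, 3 of 8 tested genes rose, 1 fell and 4 did not pass, against 21.7% higher and 9.84% lower over all genes. The catalytic subunits were among both the higher genes and those not called. Psmb5, which carries the chymotrypsin-like site (mm9 chr14:55233161-55233220), was at 4.22 and 4.52 in control and at 5.23 and 5.52 in LB1 livers. It differed by 1.01 (SE 0.25, adjusted p = 0.0373), or 2.01-fold. Psmb6, which carries the caspase-like site (mm9 chr11:70341014-70341073), was at 5.72 and 6.08 against 7.08 and 7.66, a difference of 1.47 (SE 0.30, adjusted p = 0.0275). Psmb7, which carries the trypsin-like site, was at 3.18 and 3.45 against 3.04 and 2.93, a difference of -0.33 (SE 0.23, adjusted p = 0.288). For Psmb5 and Psmb6 both LB1 values lay above both control values, and for Psmb7 both lay below without a call. Psmb7 was called lower with normexp (-0.82, adjusted p = 0.00482) and on the deposited series values (-0.62, adjusted p = 0.0219). Psmb5 fell short of the threshold under quantile normalization (0.69, adjusted p = 0.0718) and normexp background correction (0.45, adjusted p = 0.100). Scaling to the array median left neither Psmb5 (0.37) nor Psmb6 (0.84) called, with no sign changed. Without LB1 replicate 2 the adjusted p was 0.0674 for Psmb5 and 0.0466 for Psmb6.

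Psmb1, Psmb2, Psmb3 and Psmb4 have no active site, whereas Psmb10 takes the place of Psmb7 in the immunoproteasome and Psmb11 that of Psmb5 in the thymus. Among the brightest probes of the members Psmb3 rose most, from 6.24 and 6.42 in control to 7.70 and 8.68 in LB1 livers (1.87, SE 0.38, adjusted p = 0.0274). Psmb1 had the largest fall of the ring, from 4.73 and 5.001 to 3.66 and 3.38 (-1.35, SE 0.24, adjusted p = 0.024). Psmb3 and Psmb1 sit in the same ring, and their LB1 values moved away from the control values on opposite sides with no overlap. Psmb10 was at 5.36 and 5.80 against 5.98 and 6.34, and its 0.58 (SE 0.27) did not pass (adjusted p = 0.155) and fell to -0.06 with the array median as reference. The 2 other inducible subunits that the naming rule leaves out, Psmb8 and Psmb9, were at 0.42 and 0.23 and did not pass either. Psmb11, the thymus subunit, was not well above background on any array at either of its 2 probes.

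**Figure D2:**
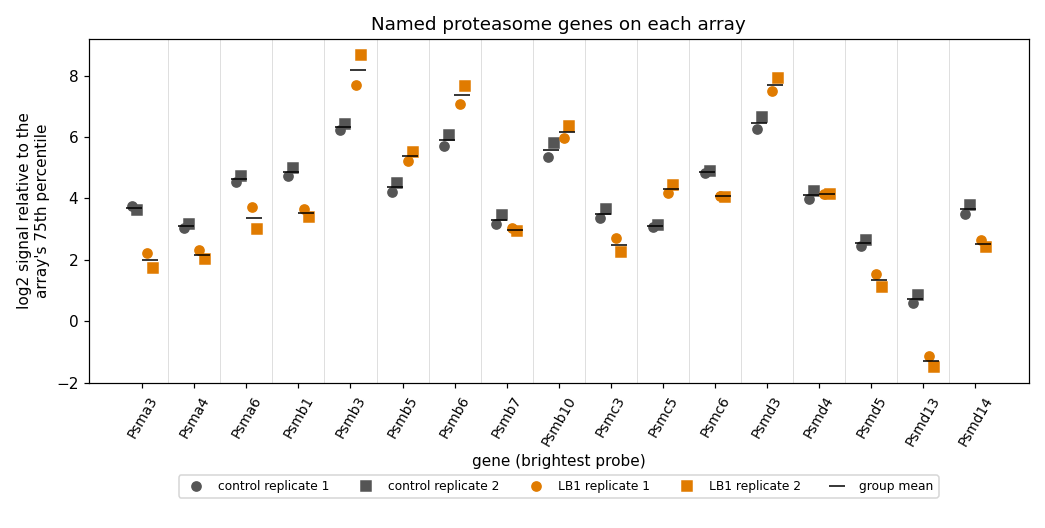
Log2 signal relative to the array's 75th percentile (vertical axis) of 17 named proteasome genes on each of the 4 arrays, with grey symbols for control, orange for LB1, circles for replicate 1, squares for replicate 2 and a dash for each group mean. Orange points lie above both grey points for Psmb3, Psmb5, Psmb6, Psmb10, Psmc5 and Psmd3, overlap them for Psmd4 and lie below them for the other genes.

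The 6 ATPases form the ring that unfolds substrates, and 2 of them fell, 1 rose and 3 did not pass. Over all genes 9.84% were lower and 21.7% higher. Psmc3 was at 3.36 and 3.65 in control and at 2.699 and 2.26 in LB1 livers (-1.03, SE 0.26, adjusted p = 0.0416). Psmc6 was at 4.82 and 4.89 against 4.06 and 4.06 (-0.79, SE 0.21, adjusted p = 0.0431). Psmc5 was at 3.06 and 3.12 against 4.16 and 4.44 (1.21, SE 0.22, adjusted p = 0.0247). None of these groups overlapped. With the slide block Psmc3 (adjusted p = 0.0582) and Psmc6 (adjusted p = 0.0655) no longer passed, and Psmc5 stayed past the threshold (adjusted p = 0.0344). With the array median as reference Psmc5 was at 0.57 and did not pass. Psmc1, Psmc2 and Psmc4 were at -0.38, -0.20 and -0.13, without a call.

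Of the 14 non-ATPase genes 4 fell, 1 rose and 9 did not pass, and most of the called ones belong to the lid, the part that removes ubiquitin chains. Psmd14, the lid deubiquitinase, was at 3.48 and 3.80 in control and at 2.64 and 2.40 in LB1 livers at its brightest probe (-1.12, SE 0.24, adjusted p = 0.0304). Among the brightest probes of the members Psmd13 fell most, from 0.61 and 0.87 to -1.12 and -1.50 (-2.05, SE 0.25, adjusted p = 0.0211), a 4.13-fold change. With normexp its difference was -1.11, still past the test (adjusted p = 0.00266). Psmd3, also of the lid, was at 6.26 and 6.65 against 7.499 and 7.91 (1.25, SE 0.27, adjusted p = 0.0311). It missed the threshold under quantile normalization (0.67, adjusted p = 0.0816), under normexp (0.66, adjusted p = 0.0573) and scaled to the array median (0.61). Psmd8 was at -0.89 (SE 0.22, adjusted p = 0.0403, or 0.0589 with the slide block). Of the 8 lid genes that the naming rule covers, 3 were thus lower and 1 higher, against 9.84% and 21.7% of all genes. In 4 of these 8 both LB1 values lay above both control values and in 4 below. This was so for 49.1% and 27.6% of all genes. Sem1, a small lid subunit outside the naming rule, was higher (1.15, adjusted p = 0.0274). Psmd7, the partner of Psmd14, was at 0.75 (adjusted p = 0.0501), and Psmd11, Psmd12 and Psmd6 at 0.57, 0.33 and -0.62 had no call at their brightest probes. Another probe of Psmd12 was called lower, at -0.87 (adjusted p = 0.0369).

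The non-ATPase genes outside the lid are base scaffolds, a ubiquitin receptor and chaperones of base assembly. Psmd4, the ubiquitin receptor, was at 3.97 and 4.26 in control and at 4.14 and 4.15 in LB1 livers, and its 0.028 (SE 0.23, adjusted p = 0.931) was the smallest difference of the particle. The large scaffolds Psmd1 and Psmd2 were at -0.76 (adjusted p = 0.0685) and 0.36. Psmd5, a chaperone that leaves before the complex is complete, was at 2.46 and 2.65 against 1.53 and 1.13 (-1.23, SE 0.25, adjusted p = 0.0278). The other base chaperones, Psmd9 and Psmd10, were at -0.83 (adjusted p = 0.0526) and -0.13. Without the 3 chaperones the regulatory particle had 2 genes higher and 5 lower of 17, and its median against all genes was -0.50.

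The activators are alternative caps that open the core without ATP. Psme1 and Psme2, which form the interferon-induced cap, and Psme3, the nuclear form, were at 1.07 (SE 0.35, adjusted p = 0.0703), 0.63 (SE 0.21, adjusted p = 0.0732) and 0.42 (SE 0.25, adjusted p = 0.23). Psme1 was at 5.09 and 5.68 in control and at 6.12 and 6.78 in LB1 livers, and with the slide block it passed (adjusted p = 0.0388). Psme2 was at 6.47 and 6.57 against 7.17 and 7.12, and Psme3 at 0.67 and 0.32 against 1.05 and 0.79. At the brightest probes LB1 values lay above control values for all 3, although Psme2 (-0.01) and Psme3 (-0.21) changed sign with the array median as reference. The other probe of Psme2 was at 5.65 and 5.85 against 5.76 and 5.52, with overlapping values (-0.11). Psme4, the large nuclear cap, was at -0.05, with overlapping values.

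Probes of the same transcript did not give the same difference, and the probe nearer the 5' end read lower. For 11 members at least 2 probes of a RefSeq transcript, at least 100 bases apart, were well above background on all 4 arrays, and the outermost pair was compared. The difference was lower at the upstream probe in 10 of the 11 pairs, with a median of -0.65. The exception was Psme4, whose probes lie 3640 bases apart (0.04). Another RefSeq probe of Psme4, at position 5593 of the transcript, was at -1.80 (SE 0.30, adjusted p = 0.023). In Psmc5 the upstream probe was at -1.44 (SE 0.42, adjusted p = 0.054) and the downstream probe at 1.21. In Psmd2 the values were -1.06 (SE 0.24, adjusted p = 0.0320) and 0.36, in Psmd14 -2.67 (SE 0.28, adjusted p = 0.0201) and -1.12, and in Psmb3 0.53 and 1.87. In Psme2 the upstream probe was at -0.11 and the downstream probe at 0.63, without a call. In Psmd12 the most upstream probe was called lower at -0.87 (SE 0.21, adjusted p = 0.0369), the brightest probe, at position 1335, was at 0.33 and the most downstream at -0.22. So among RefSeq probes the sign at Psmc5, Psmd2, Psme2 and Psmd12 depended on which probe was read.

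The first 30 of the 60 bases of these 8 probes are shown because they mark the places in the transcripts at which the readings part. The number before each is the position of the probe in its transcript, counted from the 5' end as the files give it, and coordinates are on mm9 and include any intron that the probe spans.
Psmc5 upstream, position 236, chr11:106122563-106122762: gagggccatggataagaaaaaagtattggt
Psmc5 downstream, position 1167, chr11:106124192-106124376: gctaaggtcatgcaaaaggatagtgagaaa
Psmd14 upstream, position 458, chr2:61599058-61599117: gcctatggaagttatgggtctaatgcttgg
Psmd14 downstream, position 1138, chr2:61635507-61638090: gcaagcaggatcccaaacgtcatttggaag
Psmb3 upstream, position 358, chr11:97572424-97572483: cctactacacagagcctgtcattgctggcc
Psmb3 downstream, position 664, chr11:97574748-97574807: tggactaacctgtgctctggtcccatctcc
Psmd2 upstream, position 1978, chr16:20660170-20660469: catcagggagtagctgttctgagcattgca
Psmd2 downstream, position 2702, chr16:20663260-20663319: tcacccccattctggaaggctttgttattc

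Over all transcripts with such a pair 110 to 1216 bases apart, the range of the other 10 members, the upstream probe had the lower difference in 1023 of 1470 (69.6%, median -0.51). Among pairs more than 2000 bases apart it did so in 270 of 696 (38.8%, median 0.36). Representing each gene by its most downstream probe, a setting chosen after seeing the data, left 3 core genes higher and 3 lower and 2 regulatory particle genes higher and 6 lower. Shares over all genes were not taken for this setting. The part of probe position in the member differences was otherwise not tested.

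**Figure D3:**
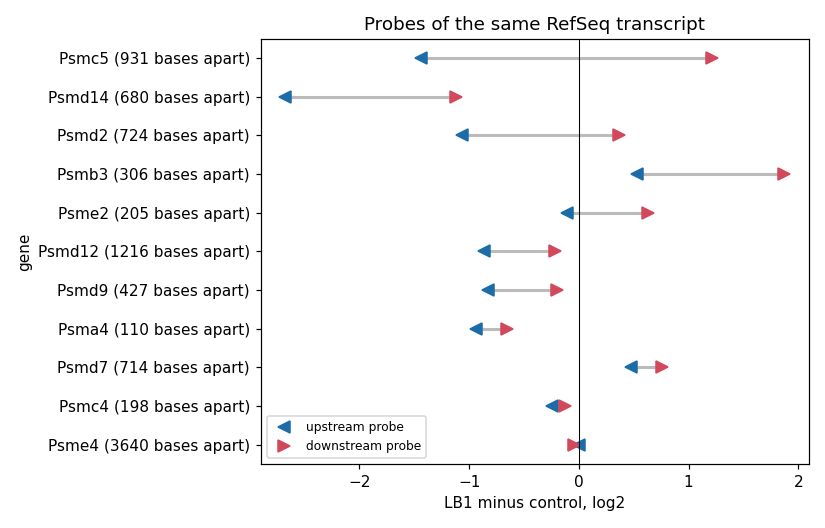
LB1 minus control difference on the log2 scale (horizontal axis) at the upstream and downstream probe of the same RefSeq transcript for 11 proteasome genes (vertical axis). The upstream triangle lies to the left of the downstream triangle in 10 genes, with -2.65 between them at Psmc5, and the pair of Psme4 coincides within 0.04.

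The place of the brightest probe was compared as well. Among subunit genes, 6 had their brightest probe within the first 400 bases of the transcript (Psma3, Psma4, Psma6, Psmb1, Psmb2 and Psmd13), a limit chosen after seeing the values. All 6 differences were below 0 and 5 were called lower, with a median of -1.31. Of the 33 other subunit genes with a RefSeq probe 5 were lower and 5 higher, with a median of 0.33. Over all genes, 10.6% of the 699 with such an early probe were called lower and 10.8% of the 11251 others, with medians of 0.49 and 0.20.

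Member differences also went with the brightness of the probe, which is a property of the probe and gives no ranking of genes. The 14 subunit and activator genes whose probe averaged at least 5 over the 4 arrays had a median difference of 0.57, with 3 called higher and none lower. The 11 between 2 and 4 had a median of -0.76, with 1 higher and 5 lower. The 8 between 4 and 5 had a median of -0.59, with 1 higher and 3 lower. The 7 below 2 had a median of -0.57, with 0 higher and 2 lower. Over all genes 21.7% were higher and 9.84% lower, and these shares were not taken by range. For all genes in the same ranges the medians were 0.65, 0.25, 0.39 and 0.25. Across the 40 genes the difference correlated with brightness at r = 0.65 (Spearman's rho = 0.69), and across all 16040 genes at -0.01 (rho = -0.03). Both measures of a gene come from the same 4 values, so the correlations are a description only.

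**Figure D4:**
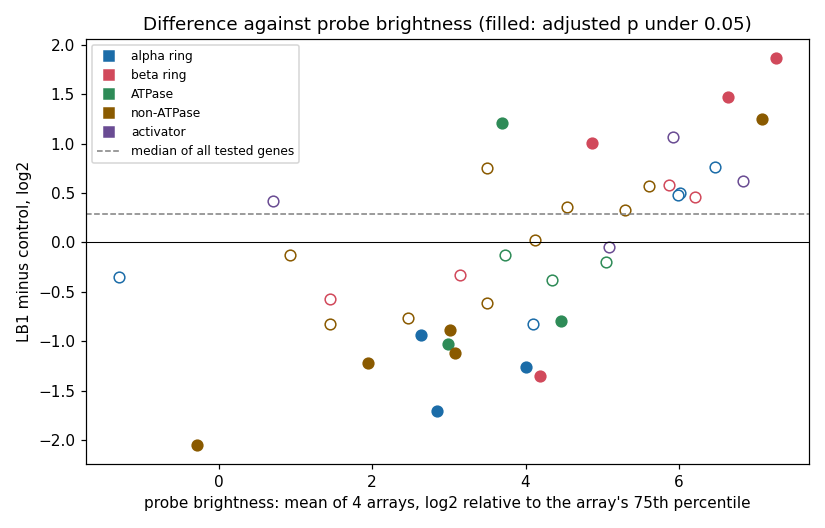
LB1 minus control difference (vertical axis, log2) against mean probe brightness over 4 arrays (horizontal axis, log2 scale, each array set to its 75th percentile) for 40 proteasome genes coloured by role, filled where adjusted p was under 0.05. The 3 brightest called genes are Psmb3, Psmd3 and Psmb6, all higher in LB1 livers, and called genes below 4 are lower except Psmc5.

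Probes designed on cDNA clones gave further readings under the same gene names. Those of Psmd7 and Psmd11, both dim but above background on all 4 arrays, were higher by 1.98 (SE 0.39, adjusted p = 0.0264) and 1.65 (SE 0.29, adjusted p = 0.024), whereas the RefSeq probes of these genes had no call. Over all 60 tested member probes 7 were called higher and 14 lower, against 19.2% and 13.2% of all probes. The clone probes of Psma2, Psmd14, Psme4 and 1 of those of Psmd11 were not well above background in either group and were not tested. These probes still read higher in LB1 livers on this scale, by 1.88, 1.90, 2.99 and 1.89 in that order. Whether the rises at the dim clone probes of Psmd7 and Psmd11 exceed such a shift was not tested. Clone probes of Psmc2 and Psmd4 and both probes of Psmc3ip were not well above background on the LB1 arrays. No member probe was saturated on any array, and no gene had probes called in opposite directions.

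Genes that build, serve and control the proteasome were read from lists. Among 8 genes for proteasome assembly, nuclear import and inhibition, 1 was higher and 1 lower, against 21.7% and 9.84% of all genes. Psmg4, of the alpha ring chaperones, was at 1.96 and 2.06 in control and at 3.06 and 2.92 in LB1 livers (0.98, SE 0.21, adjusted p = 0.0308). Psmg2, a chaperone of the same step, was at 2.11 and 2.24 against 1.19 and 0.93 (-1.12, SE 0.23, adjusted p = 0.0274). Both chaperones act at alpha ring assembly, and their LB1 values lay on opposite sides of the control values. With the array median as reference Psmg4 was at 0.34 and Psmg2 at -1.75, so the size of the rise depended on the scaling. Psmb5, at 0.37 with that reference, was not called, and the call of Psmg4 there is not given. Against the same shares of all genes, 2 of 15 receptors, deubiquitinases and shuttle factors were higher and 2 lower. They include Sem1, a small lid subunit, from 6.44 and 6.58 to 7.504 and 7.82 (1.15, SE 0.23, adjusted p = 0.0274), which quantile normalization left uncalled at 0.59 (adjusted p = 0.0786). Ddi2, the protease that activates Nfe2l1, was at -2.11 and -2.18 against -0.77 and 0.46 (1.99, SE 0.44, adjusted p = 0.0313).

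Of 20 genes for ubiquitin and the enzymes that attach it, 10 fell, 3 rose and 7 did not pass, and the list median was -0.73, or -1.02 against all genes, where 9.84% of genes were lower. Of the 3 higher genes 2 were unsaturated. Uba1, the main ubiquitin-activating enzyme, was at 1.46 and 1.93 in control and at -0.14 and -0.21 in LB1 livers (-1.87, SE 0.26, adjusted p = 0.0212). The probe of Ube2d1, a conjugating enzyme, exceeded background clearly in both control livers and in neither LB1 liver. It therefore passed the filter through the control group alone, and its signal was at least 2.26-fold lower in LB1 livers. Its limma call as lower (adjusted p = 0.0201), counted among the 10, used LB1 values not clearly above background and does not test that bound. With normexp that probe turned to 0.40 and passed as higher. The bound takes, per LB1 array, the higher of the probe's own signal and the lowest signal well above background. Rps27a, which encodes ubiquitin fused to a ribosomal protein, was higher by 1.11 (SE 0.23, adjusted p = 0.0290), but not called under quantile normalization (0.55, adjusted p = 0.102). In the unfoldase complex of p97, which pulls substrates out of membranes, 2 of 12 genes were higher and 1 lower. Over all genes 21.7% were higher and 9.84% lower. Ubxn1, an adaptor, was at 6.01 and 6.03 against 7.14 and 7.22 (1.16, SE 0.21, adjusted p = 0.0242), and Plaa, a cofactor, was at 0.43 and 0.34 against -0.42 and -0.51 (-0.85, SE 0.21, adjusted p = 0.0383). Ubxn1 missed the threshold under quantile normalization (0.72, adjusted p = 0.0538) and Plaa with the slide block (adjusted p = 0.0566). Of the 7 genes of the immunoproteasome and antigen processing, Tap1, a peptide transporter, was lower (-1.35, SE 0.22, adjusted p = 0.0223) and none was higher.

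Regulators of proteasome genes differed from each other. Of 12 such genes 5 were higher and 2 lower, against 21.7% and 9.84% of all genes. Nfe2l1 was at 4.45 and 4.60 in control and at 5.55 and 6.05 in LB1 livers (1.27, SE 0.27, adjusted p = 0.0287). The size of this difference depended on the scaling, with 0.93 after quantile normalization and 0.64 when scaled to the array median. With that last reference Psmb6, at 0.84, was not called, and the call of Nfe2l1 there is not given. Nfe2l2, which drives proteasome genes in oxidative stress, was at 3.94 and 3.48 against 3.21 and 2.76, and its -0.73 (SE 0.29) did not pass (adjusted p = 0.107). The control and LB1 values of both genes did not overlap. Nfyb, a subunit of the CCAAT-binding factor, was at 3.84 and 3.87 against 5.07 and 5.57 (1.47, SE 0.26, adjusted p = 0.0240), and Maff, a small partner of Nfe2l1, at 0.998 and 0.43 against 2.22 and 2.16 (1.48, SE 0.28, adjusted p = 0.0247). Ddi2, counted here too, and Syvn1 (1.24) were the other higher genes, and Ngly1 (-1.34) and Nfyc (-1.03) the lower ones. Nfyc turned to 0.18 with normexp (adjusted p = 0.278). Ngly1 missed the threshold under quantile normalization (adjusted p = 0.0528), and Syvn1 under quantile normalization and normexp (adjusted p = 0.0582 in both).

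Promoters were searched for the binding motif of Nfe2l1 and Nfe2l2 because Nfe2l1 was among the called regulators. The motif TGACNNNGC was looked for on both strands in the window from 250 bases before to 50 after each gene start, as RefSeq places it on GRCm38.p6. A window was given for 35 member genes, of which 6 held the motif (17.1%), and for 27025 genes in all, of which 14.0% held it. The matches are printed with the motif in capitals and up to 20 bases on each side, with no flank before the window or past the gene start, since they show which members carry the letters. Matches of Psmd9, Psmb6 and Psmb5 read along the gene, and those of Psme4, Psmd12 and Psmc6 lie on the opposite strand and appear as their reverse complement.
Psmb5, minus strand, chr14:54618014-54618062: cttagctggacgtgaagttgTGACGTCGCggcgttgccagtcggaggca
Psmb6, plus strand, chr11:70525328-70525356: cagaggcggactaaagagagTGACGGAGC
Psmd9, plus strand, chr5:123228139-123228187: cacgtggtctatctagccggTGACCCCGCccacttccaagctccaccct
Psmc6, plus strand, chr14:45329577-45329625: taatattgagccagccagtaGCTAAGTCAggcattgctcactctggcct
Psmd12, plus strand, chr11:107479278-107479309: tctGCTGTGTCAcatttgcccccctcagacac
Psme4, plus strand, chr11:30771748-30771776: aacctcccggcgctgcggctGCAGCGTCA
The motif begins 47 bases before the start in Psmb5, 9 in Psmb6, 31 in Psmd9, 227 in Psmc6, 247 in Psmd12 and 7 in Psme4. Of these 6 genes Psmb5 and Psmb6 were higher, Psmc6 was lower and Psmd9, Psmd12 and Psme4 were not called at their brightest probe. A match of these letters is a description of the window and not a site of binding.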

How the data were processed

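The scanner files hold spot intensity on a linear scale, deposited by the authors and made, per the file headers, with Feature Extraction 10.5.1.1. Per the file headers, the background was removed and the signal detrended within each array, with no step between arrays. The design text names another software version. The authors' series table gives each spot's mean intensity as a whole number, within 0.5 of the scanner files in 100% of spots.

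Control and outlier spots were left out, log2 was taken, each array's 75th percentile over 43379 spots was taken off, and copies of a probe were averaged. Probes well above background on both arrays of a group were fitted (22957 of 41174) in limma 3.58.1 (lmFit, then eBayes) under R 4.3.3. Probe names are those of the files, on mm9, and other genes were named through RefSeq accessions (GRCm38.p6). The control and LB1 arrays of the same number share a slide and a scan, per the file headers. Deviations of same-numbered arrays correlated at 0.151 across probes. The labels name each sample as a mouse and say nothing more of independence.

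On simulated data of this layout (22957 probes), 1 of 50 probes changed 2-fold, 13 at 4-fold and 43 at 8-fold were recovered, with 5 false calls. The simulated share of changed probes was far below the 32.4% called in the real data. These recovery rates therefore do not carry over to the real calls. Members, lists and tests were chosen with earlier results of these data known. Named were the catalytic subunits, Psmb10, Psmd4, Psmd14, the 3 called genes with the smallest p per role and direction, the 2 with the smallest p per list, Nfe2l1 and Nfe2l2. Syvn1, Ngly1, Nfyc and Rps27a were named after their values were seen. Alternatives were other background corrections, scalings, filters, variance models, the methods' t-test, the series table, the slide block, other choices of probe and each array left out.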

Additional observations from a re-analysis of the deposited data

How the results depend on the processing

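Calls at 2 mice a group depend on both control arrays and on the scaling. With normexp background correction 7 core and 13 regulatory particle genes were lower and 1 regulatory particle gene was higher, and the medians against all genes were -0.48 for the core and -1.23 for the regulatory particle. Psmd4 then turned from 0.028 to -0.52, past the test as lower (adjusted p = 0.0327). With quantile normalization 1 regulatory particle gene was higher. With the array median as reference 1 core and 0 regulatory particle genes were higher and 10 regulatory particle genes were lower. With no filter on dim probes the medians against all genes were -0.58 and -1.33. The named genes kept their differences there, such as -1.71 at Psma3 and -2.05 at Psmd13. What changed was that the medians, including the one over all genes, took in the dim probes. On the deposited series values 7 core and 10 regulatory particle genes were lower, with a regulatory median of -1.03. Shares over all genes were not taken for these values, the slide block, the fits without an array or the methods' own threshold. The counts under those settings are therefore not set against other genes. With the replicate block, which is the slide, 3 regulatory particle genes were lower, and of 14 named calls 11 were kept. Deviations of the same-numbered arrays correlated at 0.151, with 2 pairs. With the methods' t-test 0 genes of either particle passed after Benjamini-Hochberg adjustment in either direction. Of 41 member genes tested, 16 had an unadjusted p under 0.05 in that t-test, and limma called 15. Over all probes tested, 7012 of 22957 had such an unadjusted p and 0 passed after adjustment. At the methods' own threshold, 2-fold and that unadjusted p, 2 core and 3 regulatory particle genes were lower and 2 of each particle higher. Within slide 2 the core median against all genes was 0.078 and the gap between the particles 0.90. Leaving out 1 array at a time gave 0 to 4 core genes higher, 0 to 5 lower, 0 to 3 regulatory particle genes higher and 0 to 9 lower. The core median then ran from -0.29 to 0.035, the regulatory median from -0.80 to -0.46 and the gap from 0.26 to 0.70. Without control replicate 1 or control replicate 2 none of the 14 named calls was kept, without LB1 replicate 1 all 14 were, and without LB1 replicate 2 it was 7. In such fits the lone array is assumed to vary like the other group. Every one of the 14 kept its sign under the 15 alternative fits. The number of arrays and the signal over background on the LB1 arrays limit the precision.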
